A study of Mus musculus with 12 samples.

Results

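Complement and coagulation factors are plasma proteins that are made largely by the liver, and their transcripts were followed here across the livers of Mdr2-knockout and heterozygous mice. The members were a named set of 39 genes, 19 of complement and 20 of coagulation, and each probe set of the array whose single gene symbol was a member was taken. Of the 22690 probe sets in the value table, 46 met that rule and read 36 of the 39 genes. They comprised 21 complement probe sets for 16 genes and 25 coagulation probe sets for 20 genes. C3 and Cfd had no probe set under their own symbol in the gene table and C4b was named only together with C4a, so no signals of these 3 genes are analysed here. Vtn was counted with coagulation and Serping1 with complement.

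Complement is a cascade of proteases that can be started by antibody through C1, by the sugar-binding lectins Mbl1 and Mbl2 through the Masp proteases, or by the alternative pathway through Cfb and properdin. The routes meet at C3 and C5, and the terminal factors C6, C8 and C9 then build a pore in the target membrane. Coagulation is another protease cascade, entered through tissue factor or through the contact factors, which ends in thrombin and fibrin, and plasmin dissolves the clot. Hepatocytes are the main source of most of these proteins, several of which belong to the acute phase response.

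Male mice were used, 3 in each of 4 groups, and each mouse gave 1 liver RNA sample and 1 Affymetrix MOE430A array. KO_3M and KO_12M were Mdr2-KO mice of 3 and 12 months, and Het_3M and Het_12M were heterozygous mice of the same ages, which carry 1 knocked-out allele themselves. Mdr2 is the earlier name of Abcb4, which moves phospholipid into bile, and its loss gives chronic liver inflammation and later liver cancer. No wild-type liver was among the samples, the strain is not given in the sources used here, and the mice of the 2 ages were separate animals. The source label of mouse 1 in KO_3M and in Het_3M gives 12 months, against 3 months in the title, the age field and the stored array description, and the title was followed.

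Values are MAS 5.0 signals, an intensity without unit, and levels are compared within a probe set only. Differences are log2 fold changes ± SE from limma, fitted to all 12 arrays after an offset of 16 was added to each signal. A probe set was called where limma's Benjamini-Hochberg adjusted p over 12976 tested probe sets was under 0.05, and 45 of the 46 member probe sets were tested. The exception was Masp1 1455346_at, which lay below the array median on all 12 arrays. In whole liver, fewer cells of a type and less RNA per cell cannot be told apart.

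The targeted gene was lower in the mice labelled as knockout. Abcb4 signals were 280.8, 296 and 386 in KO_3M against 729, 678 and 763 in Het_3M, and 293, 243 and 332 in KO_12M against 592, 601 and 675 in Het_12M. The arrays were scanned in 3 sessions, found from gaps between scan times, and no session held both genotypes at 1 age. Session 1 held Het_12M mice 1 to 3 and Het_3M mouse 1, session 2 held KO_12M mice 1 and 2 with Het_3M mice 2 and 3, and session 3 held KO_12M mouse 3 with the 3 KO_3M mice. A session block therefore rests on the few arrays that join sessions. The actin control signal at its 3' end over that at its 5' end, a measure of RNA quality, averaged 4.92 in KO_3M against 7.0 in Het_3M, and 2.79 in KO_12M against 3.64 in Het_12M. The part of session and of RNA quality in the results was not tested beyond the fits named below. KO_12M mouse 3 stood apart, since its brightest probe set reached 6328 while the maximum of the other arrays lay between 9471 and 12746.

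The compressed top end of KO_12M mouse 3 touches bright liver transcripts, and complement and coagulation factors are among the brightest. Of the 20 member probe sets with a mean signal over 2000, 20 were lower in KO_12M mouse 3 than in the mean of KO_12M mice 1 and 2, with a median log2 difference of -0.29. The 449 tested probe sets of that brightness had a median difference of -0.32. Among the 10 member probe sets under 500, 5 were lower and the median difference was -0.03. Values without KO_12M mouse 3 stand beside the 12-month results that move with it.

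**Figure D1:**
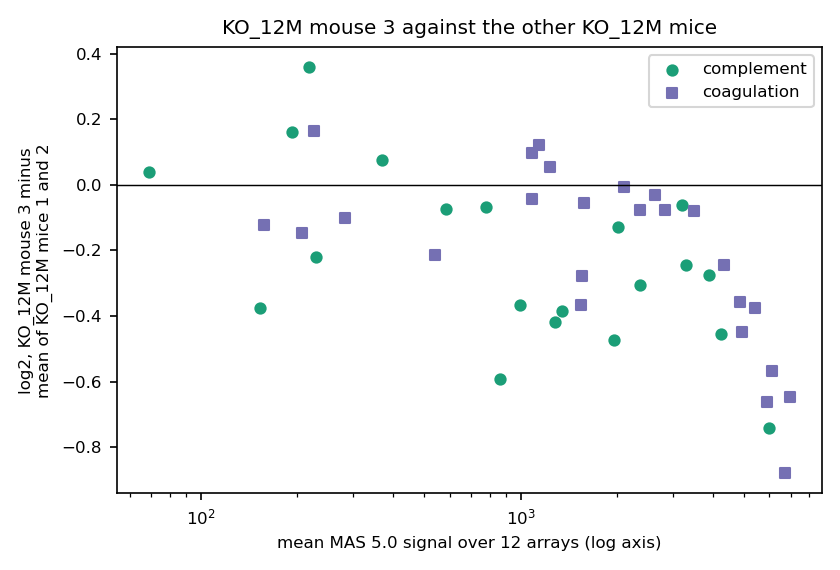
Difference of KO_12M mouse 3 from the mean of KO_12M mice 1 and 2 (log2, vertical axis) against the mean MAS 5.0 signal over 12 arrays (horizontal log axis), 1 point for each tested member probe set, complement as circles and coagulation as squares. The 20 member probe sets with a mean signal over 2000 lie below 0.

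At 3 months the calls lay mainly among complement factors, and most of them were higher in knockout liver. Of 20 tested complement probe sets, 5 rose in KO_3M (C2, Cfb, Cfp, C4bp and C6) and 1 fell, while of 25 coagulation probe sets 1 rose (Pros1) and 1 fell (Kng1 1426045_at). Over all tested probe sets 21.2% were called in this comparison, 9.55% as higher and 11.6% as lower, so the 8 calls among 45 member probe sets are no more frequent than among all probe sets. Cfp passed the filter on low signals through knockout arrays alone, so it had to differ and its call lends no support to the count. The median log2 fold change was 0.01 for complement and -0.08 for coagulation, beside -0.06 for all probe sets tested. Scaling the arrays by the median moved that last value to 0.11 and turned the split to 6 higher and 0 lower in complement and to 3 higher and 0 lower in coagulation, while quantile normalization gave 1 higher and 2 lower in coagulation. With session as a block, 3 complement probe sets and 1 coagulation probe set were called, all higher. Pros1 was not called there, at 0.73 (limma adjusted p = 0.139), so the coagulation call was of another probe set. Medians there were 0.42 for complement, with 14 of 20 probe sets above 0, 0.07 for coagulation and -0.07 for all tested probe sets.

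**Figure D2:**
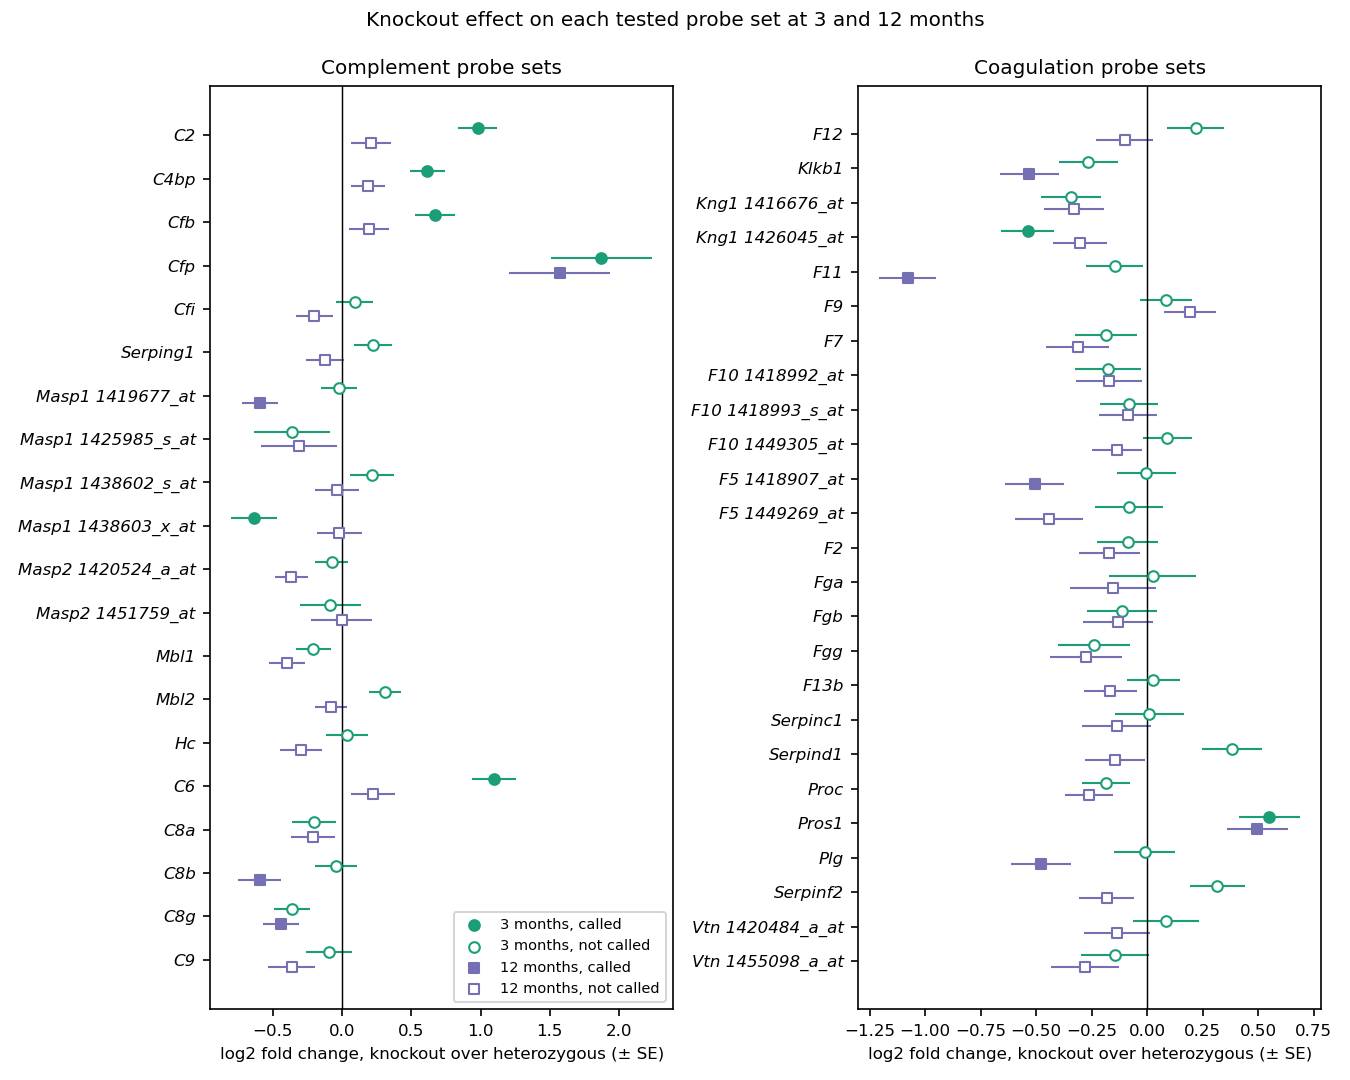
Log2 fold change of knockout over heterozygous liver with its limma SE (horizontal axis) for the 20 complement probe sets (left) and 25 coagulation probe sets (right), circles at 3 months and squares at 12 months, filled where called. C2, Cfb, Cfp, C4bp and C6 lie to the right of 0 with filled circles, and F11 has the lowest value, at -1.08 in 12-month livers.

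Among the activation proteases, C2 is the serine protease that cuts C3 in the classical and lectin pathways. Its signals were 598, 635 and 612 in KO_3M against 385, 275 and 264 in Het_3M. The KO_3M arrays lay above each Het_3M array, and the means were 615 ± 19.2 in KO_3M and 308 ± 66.7 in Het_3M (SD, n = 3 each). The log2 fold change was 0.98 ± 0.14 (limma adjusted p = 0.000217), and it ran from 0.88 to 1.16 over 27 alternative settings, past the threshold in each. At 12 months the signals were 317, 263.2 and 305 in KO_12M against 252, 262.8 and 242 in Het_12M. The nearest arrays of these groups were level, and the difference of 0.21 did not pass (limma adjusted p = 0.416), nor did that of 0.19 without KO_12M mouse 3.

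Cfb, the counterpart of C2 in the alternative pathway, is the gene next to C2 on mouse chromosome 17, with 0 protein-coding genes between them in the RefSeq order. It had signals of 2500.2, 2764 and 2448 in KO_3M against 1779, 1384 and 1676 in Het_3M, again without overlap. The difference was 0.67 ± 0.14 (limma adjusted p = 0.00397). In 12-month livers Cfb signals were 2111, 2190.2 and 1545 in KO_12M against 1705, 1759 and 1576 in Het_12M, and KO_12M mouse 3 lay below the Het_12M arrays. The 12-month difference was 0.20 ± 0.14 (limma adjusted p = 0.454), and without that array it was 0.35 (limma adjusted p = 0.119). With the actin ratio as a covariate the 3-month value was 0.49 (limma adjusted p = 0.0508).

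Cfp encodes properdin, which stabilises the alternative pathway convertase and is made mainly by myeloid cells. It was dim, at or above the array median on the 6 knockout arrays and below it on the 6 heterozygous arrays, so it was tested only because of the group where it was high. Its signals were 88.1, 213 and 80.1 in KO_3M against 10.5, 14.7 and 41.2 in Het_3M, and 81.5, 118 and 102 in KO_12M against 18.5, 13.2 and 42.3 in Het_12M. Each knockout array lay above each heterozygous array of its age. The log2 fold changes were 1.87 ± 0.36 at 3 months (limma adjusted p = 0.00215) and 1.57 ± 0.36 at 12 months (limma adjusted p = 0.011). Their size depends on the offset because the heterozygous signals were low, from 1.10 with an offset of 64 to 2.55 with an offset of 1 at 3 months, and from 0.90 to 2.13 at 12 months. With session as a block neither passed (limma adjusted p = 0.201 at 3 months and 0.713 at 12 months), and without Het_12M mouse 2 the 12-month value had limma adjusted p = 0.0538.

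Markers of macrophages moved in part with Cfp. Of 10 tested macrophage probe sets, 7 rose and 1 fell at 3 months, and 3 rose at 12 months, with Lyz2 at 1.98 and 2.01 and Mpeg1 at 2.29 and 1.45. The shares over all tested probe sets were 9.55% higher and 11.6% lower at 3 months, and 5.86% higher at 12 months. The probe set that fell was that of Adgre1, at -0.64 (limma adjusted p = 0.0156). Adgre1 means were 128 in KO_3M against 206 in Het_3M, and 162.5 in KO_12M against 184 in Het_12M. Their summed signal lay between 4251 and 7266 in KO_3M against 2436 to 2652 in Het_3M, and between 4637 and 5113 in KO_12M against 2733 to 3164 in Het_12M. Marco, a defining marker, was below the filter, at mean signals of 31.5 in KO_3M and 7.97 in Het_3M. The part of macrophage number in the Cfp result was not tested.

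C4bp encodes the alpha chain of C4b-binding protein, which slows the classical and lectin pathways. Signals were 2139, 2456 and 2597 in KO_3M against 1716, 1345 and 1624 in Het_3M. The groups did not overlap, and the log2 fold change was 0.62 ± 0.12 (limma adjusted p = 0.00277). With session as a block it was 0.82, which did not pass (limma adjusted p = 0.0634). At 12 months C4bp had 2307, 2227 and 2072 in KO_12M against 2010.2, 1962 and 1827 in Het_12M, a difference of 0.19 ± 0.12 (limma adjusted p = 0.408). The other inhibitors among the complement members were Cfi, which degrades C3b and C4b, and Serping1, the C1 inhibitor. Cfi differed by 0.09 at 3 months and -0.20 at 12 months, and Serping1 by 0.22 and -0.12, and none of these passed (limma adjusted p from 0.265 to 0.671).

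The terminal factors gave different patterns. C6, which joins C5b as the first step of pore assembly, had signals of 2042, 1764 and 1558 in KO_3M against 888, 788 and 794 in Het_3M. The lowest KO_3M array was well above the highest Het_3M array, and the means were 1788 ± 243 in KO_3M and 823 ± 56.4 in Het_3M (SD, n = 3 each). C6 rose by 1.10 ± 0.16 (limma adjusted p = 0.000194), and the 27 alternatives gave 1.00 to 1.57 and kept the call. At 12 months C6 had 1518, 1438 and 1102 in KO_12M against 944, 1371 and 1158 in Het_12M. These groups overlapped, and the difference was 0.23 ± 0.16 (limma adjusted p = 0.432), or 0.36 without KO_12M mouse 3 (limma adjusted p = 0.208).

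C8 is built from 3 chains, the products of C8a, C8b and C8g, and C8a and C8b are neighbouring genes on chromosome 4. C8b had 1849, 1336 and 1322 in KO_3M against 1613, 1652 and 1342 in Het_3M, which overlapped. It had 1022, 1022 and 780.1 in KO_12M against 1342, 1519 and 1404 in Het_12M, which did not overlap. C8b differed by -0.04 ± 0.15 at 3 months (limma adjusted p = 0.869) and -0.60 ± 0.15 at 12 months (limma adjusted p = 0.0196). C8b and C8g were called lower at 12 months, whereas C8a, whose product inserts into the membrane, was not.

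C8g, whose product is a lipocalin, had 3624, 2832 and 2749 in KO_3M against 3874, 4116 and 3780.2 in Het_3M, and 2701, 2802 and 2318 in KO_12M against 3333, 3681 and 3589.9 in Het_12M. The knockout arrays were the lower ones at both ages. The difference was -0.36 ± 0.13 at 3 months (limma adjusted p = 0.0569) and -0.44 ± 0.13 at 12 months (limma adjusted p = 0.0418). The 3-month value passed under 5 alternatives (limma adjusted p from 0.00497 to 0.0451), among them quantile normalization and leaving out KO_3M mouse 1 or KO_12M mouse 3. Without KO_12M mouse 3 the 12-month values were -0.47 for C8b (limma adjusted p = 0.0866) and -0.36 for C8g (limma adjusted p = 0.11), and neither call held. The C8b call was also lost without Het_12M mouse 2 or mouse 3 (limma adjusted p = 0.0814 and 0.0518), and the C8g call was lost without any 1 of the 9 arrays that were not KO_3M.

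The remaining pore and C5 genes gave no call. C8a differed by -0.20 at 3 months and -0.21 at 12 months, and C9, which polymerises to form the pore, by -0.09 and -0.36 (limma adjusted p from 0.215 to 0.737). C9 had signals of 5285, 5878 and 3324 in KO_12M against 5793, 6127 and 6188 in Het_12M, with the lowest value in KO_12M mouse 3. Hc, the mouse gene for C5, differed by 0.04 and -0.30 (limma adjusted p = 0.894 and 0.264). With KO_12M mouse 3 left out, the 12-month differences were -0.11 for C8a, -0.11 for C9 and -0.10 for Hc.

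**Figure D3:**
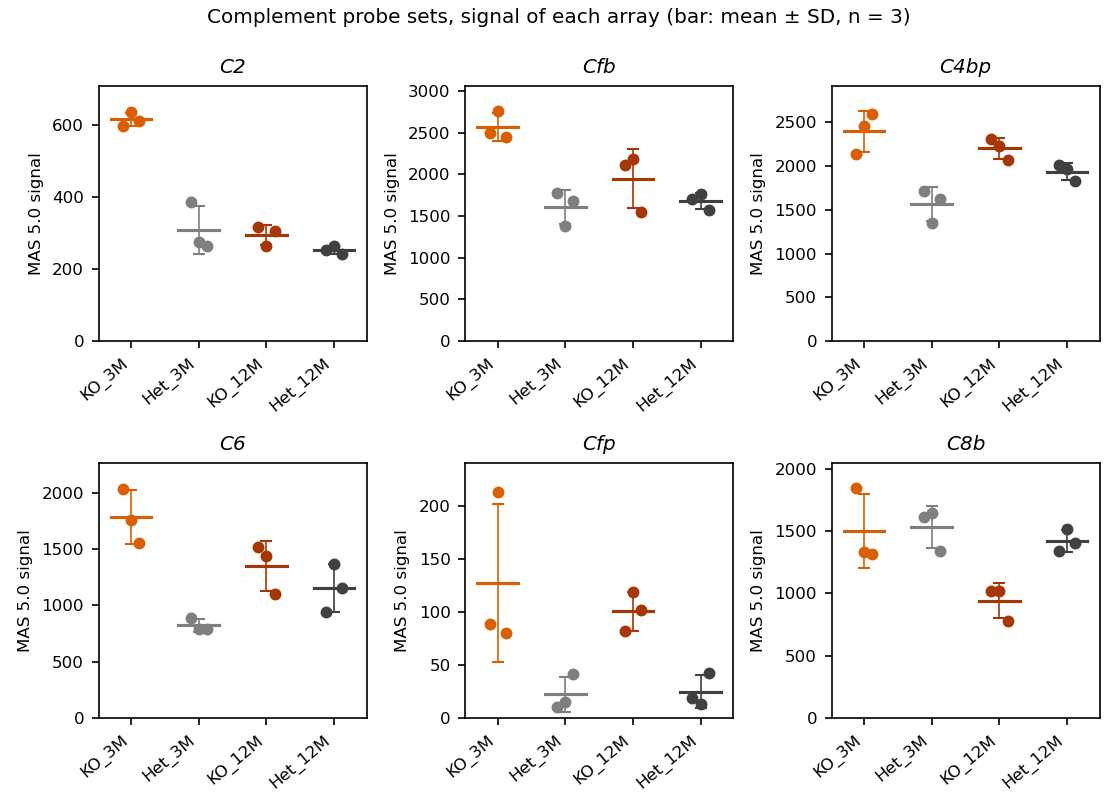
MAS 5.0 signal of each array (vertical axes, from 0) for 6 complement probe sets in KO_3M, Het_3M, KO_12M and Het_12M, with a bar at the mean and an SD over 3 mice. C2 and C6 are highest in KO_3M, at means of 615 and 1788, and C8b is lowest in KO_12M, at 942.

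The lectin pathway starts with the mannose-binding lectins and the Masp proteases that they carry. Masp1 was read by 4 tested probe sets that disagreed, and the gene gives several proteins through alternative splicing, to which the probe sets were not assigned here. Masp1 1419677_at had 862, 855 and 938 in KO_3M against 911, 894 and 883 in Het_3M, and 555, 514 and 509 in KO_12M against 859, 916 and 650.2 in Het_12M. The 12-month groups did not overlap, and the log2 fold change there was -0.59 ± 0.13 (limma adjusted p = 0.00781), beside -0.02 ± 0.13 at 3 months. Without KO_12M mouse 3 it was -0.57 (limma adjusted p = 0.0279), and with session as a block it did not pass (limma adjusted p = 0.473).

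Masp1 1438603_x_at was much dimmer and gave another pattern, with 114, 89.9 and 115 in KO_3M against 163, 186 and 171 in Het_3M, and 168, 193 and 135 in KO_12M against 170.2, 138 and 195 in Het_12M. KO_3M was the low group, at a difference of -0.63 ± 0.16 (limma adjusted p = 0.0126), while the 12-month groups overlapped at -0.02 ± 0.16. The 3-month call was lost without KO_3M mouse 2 (limma adjusted p = 0.0594). Masp1 1425985_s_at had 252, 107 and 196 in KO_3M against 207, 297.5 and 196 in Het_3M, and 130, 244 and 234 in KO_12M against 196, 311 and 246 in Het_12M. Masp1 1438602_s_at had 290.4, 257 and 196 in KO_3M against 218, 220.2 and 189 in Het_3M, and 249, 231 and 204 in KO_12M against 200.2, 240.5 and 263 in Het_12M. The groups of the last 2 probe sets overlapped at both ages, with differences between -0.36 and 0.22.

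Masp2, the protease that cuts C4 and C2, differed by -0.08 at 3 months and -0.37 ± 0.12 at 12 months on 1420524_a_at (limma adjusted p = 0.697 and 0.0655), and by -0.08 and -0.00 on 1451759_at. Mbl1 differed by -0.21 ± 0.13 at 3 months and -0.40 ± 0.13 at 12 months (limma adjusted p = 0.272 and 0.0656). Mbl2 differed by 0.31 ± 0.12 and -0.08 ± 0.12 (limma adjusted p = 0.0692 and 0.749), and its 3-month value passed with median scaling, with quantile normalization and without KO_12M mouse 3 (limma adjusted p = 0.0227, 0.0438 and 0.0451). None of the lectin genes other than Masp1 passed in knockout against heterozygous liver in the fit to all 12 arrays.

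The classical pathway genes outside the member set were counted in a wider complement list. Of its 29 genes, 17 were tested by 24 probe sets, of which 11 rose at 3 months, and 8 rose and 1 fell at 12 months. The shares over all tested probe sets were 9.55% higher and 11.6% lower at 3 months, and 5.86% and 3.6% at 12 months. C1qa, C1qb and C1qc, which encode the chains of C1q and are expressed by macrophages, rose at both ages. C1qa rose by 2.03 at 3 months and 1.28 at 12 months, and C1qc by 1.90 and 1.32. The receptor subunit genes C3ar1 and Itgb2 were also called higher at both ages, C3ar1 on 1 of its 2 probe sets at 12 months. The probe set of Itgb2 and 1 of the 2 of C3ar1 reached the array median on knockout arrays alone, so they were tested only because of the group where they were high. Clu, a fluid-phase inhibitor of the pore, was called higher on 1 of its tested probe sets, by 0.92 at 3 months and 0.53 at 12 months. Its brighter probe sets were not called at either age. Their means were 6440, 5580 and 7704 in KO_3M against 5215, 4206 and 5573 in Het_3M. At 12 months they were 4686, 4550 and 5398 in KO_12M against 4336, 3890 and 4794 in Het_12M. Cpn2, a subunit of the carboxypeptidase that inactivates C3a and C5a, fell by 0.54 at 12 months. The list had 7 higher and 0 lower calls at 12 months without KO_12M mouse 3.

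At 12 months the calls lay mostly on the lower side. Of 20 complement probe sets 1 was higher (Cfp) and 3 were lower (C8b, C8g and Masp1 1419677_at), and of 25 coagulation probe sets 1 was higher (Pros1) and 4 were lower (F11, Klkb1, F5 1418907_at and Plg). Over all tested probe sets 9.46% were called, 5.86% as higher and 3.6% as lower. Fold changes below 0 were found for 15 of 20 complement and 23 of 25 coagulation probe sets, with medians of -0.16 and -0.17 beside -0.00 for all tested probe sets. Without KO_12M mouse 3 the medians were -0.06 and -0.14, 7 of 20 complement and 7 of 25 coagulation probe sets lay above 0, and 2 complement and 3 coagulation probe sets were called. Without Het_12M mouse 2 the counts were 1 and 1, and with session as a block none of the 9 calls held. Quantile normalization gave medians of -0.07 for complement and -0.08 for coagulation, with 7 and 8 probe sets above 0, and the session block gave -0.02 and -0.09, with 9 and 9 above 0. As at 3 months, the Cfp call lends no support to the count.

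Of 16 tested hepatocyte marker probe sets, 3 fell at 12 months, those of Cyp2e1, Hpd and 1 of Hnf4a, where 3.6% of all tested probe sets were called lower. Fold changes of 13 were below 0, with a median of -0.35. The other 3 probe sets of Hnf4a, a liver transcription factor, had higher means in KO_12M than in Het_12M, at 335 against 311, 487 against 416 and 61.5 against 51.9. The summed marker signal was 84849, 80248 and 56015 in KO_12M mice 1 to 3 against 89673 to 99717 in Het_12M, and it lay between 87852 and 106558 in KO_3M against 99974 to 109640 in Het_3M. Without KO_12M mouse 3, which had the lowest sum, 2 of the 16 were called lower and the median was -0.17. Other secreted hepatocyte proteins were read by 16 probe sets, of which 8 are also hepatocyte marker probe sets, and their 12-month median was -0.35, or -0.14 without KO_12M mouse 3. Fetub fell at both ages, by 0.58 at 3 months and 0.97 at 12 months. The part of hepatocyte content in the member results was not tested.

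F11 showed the lowest 12-month fold change of the 45 member probe sets. It encodes factor XI, the contact pathway protease that activates factor IX. Its signals were 215, 186 and 185 in KO_12M against 415, 439.9 and 434 in Het_12M, and 216, 255 and 248 in KO_3M against 274, 239 and 288 in Het_3M. The highest KO_12M array was far below the lowest Het_12M array, while the 3-month groups overlapped. Means were 195 ± 16.9 in KO_12M and 429.6 ± 12.8 in Het_12M (SD, n = 3 each). The log2 fold change was -1.08 ± 0.13 at 12 months (limma adjusted p = 5.11e-05) and -0.15 ± 0.13 at 3 months (limma adjusted p = 0.443). Over 27 alternatives the 12-month value ran from -1.16 to -0.93, and the call was lost with session as a block (limma adjusted p = 0.0946).

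Klkb1, the gene of plasma prekallikrein, lies beside F11 on chromosome 8 with 0 protein-coding genes between them. It had 1277, 1140.0 and 1160.3 in KO_12M against 1471, 1939 and 1806 in Het_12M, and 1369.7, 1509.7 and 1763 in KO_3M against 1842, 1982 and 1741 in Het_3M. The 12-month groups did not overlap, and the 3-month groups did. Klkb1 differed by -0.53 ± 0.13 at 12 months (limma adjusted p = 0.0174) and -0.26 ± 0.13 at 3 months (limma adjusted p = 0.168). The call was lost without Het_12M mouse 2, Het_12M mouse 3 or KO_12M mouse 2 (limma adjusted p = 0.0923, 0.0665 and 0.0571).

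F11 and Klkb1 are neighbours that were both lower at 12 months, so their promoter windows are shown, 250 bases before to 50 bases after the transcript start, from RefSeq on GRCm38.p6. Capitals mark the letters TTGCNNAA, a C/EBP-type motif, searched on both strands. C/EBP factors are liver transcription factors of the acute phase response. The match starts at position -17 from the transcript start in F11 and at -177 in Klkb1.
F11, chr8:45261982-45262281, minus strand: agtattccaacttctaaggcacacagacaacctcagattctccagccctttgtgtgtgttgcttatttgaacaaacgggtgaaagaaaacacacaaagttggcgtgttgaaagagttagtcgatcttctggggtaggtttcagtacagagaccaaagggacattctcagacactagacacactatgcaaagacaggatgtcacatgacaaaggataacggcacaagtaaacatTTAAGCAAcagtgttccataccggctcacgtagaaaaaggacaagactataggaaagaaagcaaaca
Klkb1, chr8:45294786-45295085, minus strand: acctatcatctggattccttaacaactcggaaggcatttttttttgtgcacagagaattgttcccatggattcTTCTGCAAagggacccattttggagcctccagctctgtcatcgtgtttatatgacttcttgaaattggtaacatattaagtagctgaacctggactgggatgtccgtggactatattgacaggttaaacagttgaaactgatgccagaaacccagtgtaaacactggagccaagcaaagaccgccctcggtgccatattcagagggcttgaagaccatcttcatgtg
Of 32817 promoter windows, 10.8% held TTGCNNAA, and so did 8 of 31 windows of member genes. The 31 windows belong to 30 genes, with C8g repeated. C3, which held the letters, and Cfd are among them though they had no probe set. C2, Cfb, Cfi, Serping1, Masp1, Plg, Kng1, Proc and C4b had no window, so the windows are not those of the probe sets read. A match describes the letters and not a bound site.

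Kng1 and F12 complete the contact system. Kng1, the precursor of bradykinin, has a close mouse paralogue, Kng2, so its probe sets are uncertain as to which copy they read. Kng1 1426045_at had 1892, 1861 and 2348 in KO_3M against 2802, 3128 and 2913 in Het_3M, and 1938, 2127 and 1927 in KO_12M against 2328, 2527 and 2539 in Het_12M. The groups did not overlap at either age. This probe set differed by -0.54 ± 0.12 at 3 months (limma adjusted p = 0.00545) and -0.30 ± 0.12 at 12 months (limma adjusted p = 0.138). The 3-month call was lost with median scaling (limma adjusted p = 0.0977) and with session as a block (limma adjusted p = 0.211).

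Kng1 1416676_at gave the same direction with a smaller 3-month value. It had 4484, 3814 and 4814 in KO_3M against 5613.5, 5978 and 5007 in Het_3M, and 3485, 3466 and 2934.5 in KO_12M against 3631, 4570.5 and 4249.5 in Het_12M. The groups did not overlap, and the differences of -0.34 ± 0.14 and -0.33 ± 0.14 did not pass (limma adjusted p = 0.0829 and 0.151). The 3-month value of Kng1 1416676_at passed with quantile normalization and without KO_12M mouse 3 (limma adjusted p = 0.0279 and 0.0496). F12, which starts the contact pathway, differed by 0.22 ± 0.13 at 3 months and -0.10 ± 0.13 at 12 months (limma adjusted p = 0.238 and 0.702).

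Of the vitamin K-dependent proteases F9, F7, F2 and F10, none passed at either age. F9 differed by 0.08 at 3 months and 0.20 at 12 months, F7 by -0.18 and -0.31, and F2, the thrombin precursor, by -0.09 and -0.17 (limma adjusted p from 0.193 to 0.7). The 3 probe sets of F10 ranged from -0.18 to 0.09 over both ages. F5, the cofactor of factor Xa, was read by 2 probe sets. F5 1418907_at had 974, 788 and 851 in KO_12M against 1166, 1427 and 1146 in Het_12M, and 1122, 981 and 1243 in KO_3M against 1028, 1154 and 1161 in Het_3M. Its 12-month groups did not overlap, with a log2 fold change of -0.51 ± 0.13 (limma adjusted p = 0.0226) beside -0.00 at 3 months.

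F5 1449269_at had 1007, 621 and 863 in KO_12M against 1078, 1192 and 1068 in Het_12M, and 1233, 1251 and 1348 in KO_3M against 1208, 1502 and 1357 in Het_3M. The direction at 12 months was that of the other probe set, at -0.44 ± 0.15 (limma adjusted p = 0.0844), and without KO_12M mouse 1 it passed at -0.59 (limma adjusted p = 0.0285). The call of F5 1418907_at was lost without KO_12M mouse 2, KO_12M mouse 3 or Het_12M mouse 2 (limma adjusted p = 0.0845, 0.0596 and 0.12).

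The fibrinogen genes Fga, Fgb and Fgg lie side by side on chromosome 3 and are textbook acute phase genes, and none of them was called. Fga had 7780, 6856 and 5962 in KO_3M against 6325, 6852 and 6975 in Het_3M, and 7466, 7651 and 4102 in KO_12M against 6051, 7177 and 7420.1 in Het_12M. The groups overlapped at both ages, and KO_12M mouse 3 had the lowest signal of the 12. Log2 fold changes of Fga, Fgb and Fgg were 0.02, -0.11 and -0.24 at 3 months and -0.15, -0.13 and -0.27 at 12 months (limma adjusted p from 0.311 to 0.944). With KO_12M mouse 3 left out, the 12-month values of Fga, Fgb and Fgg were 0.14, 0.09 and -0.05, so the sign of Fga and Fgb turned. F13b, the carrier subunit of the fibrin-crosslinking factor XIII, differed by 0.03 and -0.17.

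Some other acute phase genes moved. Of 19 tested acute phase probe sets outside the member set, 5 rose and 1 fell at 3 months, and 2 rose and 1 fell at 12 months. The 12-month counts were 5 and 0 without KO_12M mouse 3. Over all tested probe sets 9.55% were called higher and 11.6% lower at 3 months, and 5.86% and 3.6% at 12 months. Hp, Hpx, Orm1, Itih3, Itih4, Crp, Apcs, Socs3 and Stat3 were not called at either age in the fit to all 12 arrays. Lcn2, whose product is a siderophore-binding lipocalin, was called higher at both ages, with mean signals of 929 in KO_3M against 4.87 in Het_3M and of 824 in KO_12M against 18.1 in Het_12M. It was at or above the array median on knockout arrays alone, so it had to differ, and the size of its fold change is set by the offset. The 2 probe sets of Saa1 rose by 2.11 and 2.48 at 3 months, whereas Saa3 fell by 0.60 at 3 months and by 0.61 at 12 months. The promoter windows of Fga and Fgb are shown because both hold the letters of a STAT motif, TTCNNNGAA, and of the C/EBP-type motif, which are known from acute phase promoters. The window of Fgg, the remaining fibrinogen gene, held neither. The STAT letters start at -234 in Fga and -162 in Fgb, and the C/EBP letters at -135 in Fga and -80 in Fgb, without overlap, and both are in capitals.
Fga, chr3:83025903-83026202, plus strand: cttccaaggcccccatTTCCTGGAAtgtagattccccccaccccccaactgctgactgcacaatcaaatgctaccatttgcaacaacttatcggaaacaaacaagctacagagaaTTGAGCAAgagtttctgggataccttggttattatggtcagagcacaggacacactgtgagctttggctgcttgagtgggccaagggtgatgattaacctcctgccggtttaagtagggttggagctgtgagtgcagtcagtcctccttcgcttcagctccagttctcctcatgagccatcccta
Fgb, chr3:83049814-83050113, minus strand: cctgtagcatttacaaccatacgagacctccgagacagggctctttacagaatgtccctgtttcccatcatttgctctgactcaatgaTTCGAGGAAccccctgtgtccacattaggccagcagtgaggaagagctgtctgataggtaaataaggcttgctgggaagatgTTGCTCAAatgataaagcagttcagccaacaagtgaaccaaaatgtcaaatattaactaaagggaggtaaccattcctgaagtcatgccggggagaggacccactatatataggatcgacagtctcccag
TTCNNNGAA was found in 8.29% of the 32817 windows and in 7 of the 31 member windows. An NF-kappaB motif was in 1.63% of all windows and in 0 member windows, that of interferon response elements was in 3.43% and in 1 member window, that of Vtn, and CAAAGTCCA, of HNF4, was in 0.475% and in 0 member windows.

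Like that of Fgg, the windows of C6 and C4bp, which rose at 3 months, held no match to the 5 motifs. This says only that these letters are not in the window, and the window of Pros1, which also rose, holds the STAT letters. They are printed without capitals.
C6, chr15:4726960-4727259, plus strand: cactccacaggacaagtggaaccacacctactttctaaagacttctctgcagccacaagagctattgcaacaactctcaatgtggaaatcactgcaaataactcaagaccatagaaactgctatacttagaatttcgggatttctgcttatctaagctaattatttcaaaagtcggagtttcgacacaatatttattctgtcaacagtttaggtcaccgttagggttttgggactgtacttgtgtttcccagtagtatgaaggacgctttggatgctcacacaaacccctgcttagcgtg
C4bp, chr1:130661569-130661868, minus strand: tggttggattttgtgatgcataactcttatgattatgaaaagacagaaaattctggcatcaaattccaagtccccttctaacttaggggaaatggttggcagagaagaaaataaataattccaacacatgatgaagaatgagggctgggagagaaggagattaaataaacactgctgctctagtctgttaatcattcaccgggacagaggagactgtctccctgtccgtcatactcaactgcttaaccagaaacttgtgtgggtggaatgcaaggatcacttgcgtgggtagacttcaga

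Among the anticoagulants, Pros1 was the member called higher at both ages in coagulation. It encodes protein S, the cofactor of activated protein C. Its signals were 221, 264 and 259.6 in KO_3M against 172, 153 and 168 in Het_3M, and 285, 223 and 226 in KO_12M against 162, 162 and 180.5 in Het_12M. The groups did not overlap at either age. The log2 fold change was 0.55 ± 0.14 at 3 months (limma adjusted p = 0.0102) and 0.50 ± 0.14 at 12 months (limma adjusted p = 0.0308). The 12-month call was lost without KO_12M mouse 1, Het_12M mouse 1 or Het_12M mouse 2 (limma adjusted p = 0.133, 0.0968 and 0.0981). With the actin ratio as a covariate neither passed (limma adjusted p = 0.0798 at 3 months and 0.0959 at 12 months). Session as a block also took both past the threshold the other way, to limma adjusted p = 0.139 at 3 months and 0.375 at 12 months, so neither call held.

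The Pros1 window holds the STAT letters, in capitals, starting at -92.
Pros1, chr16:62854057-62854356, plus strand: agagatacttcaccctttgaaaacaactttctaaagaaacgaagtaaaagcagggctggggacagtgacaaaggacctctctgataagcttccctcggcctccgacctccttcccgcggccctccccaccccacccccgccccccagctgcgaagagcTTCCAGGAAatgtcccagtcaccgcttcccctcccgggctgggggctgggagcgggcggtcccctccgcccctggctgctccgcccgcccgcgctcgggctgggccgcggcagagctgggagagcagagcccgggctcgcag

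The other inhibitors gave no call. Serpinc1, antithrombin, differed by 0.01 at 3 months and -0.14 at 12 months. Serpind1, heparin cofactor II, differed by 0.38 ± 0.14 at 3 months (limma adjusted p = 0.0545) and -0.15 at 12 months, and Proc, protein C, by -0.19 and -0.26. Serpind1 signals were 1634, 1941 and 1521 in KO_3M against 1378, 1123 and 1390.5 in Het_3M, without overlap.

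Plg, the precursor of plasmin, had 3911, 4697 and 3300.2 in KO_12M against 4975, 5874 and 5632 in Het_12M, and 6302, 5484 and 6430.5 in KO_3M against 6120.1, 6246 and 5954 in Het_3M. The 12-month groups did not overlap, although KO_12M mouse 2 and Het_12M mouse 1 were close. Plg differed by -0.48 ± 0.14 at 12 months (limma adjusted p = 0.0362) and -0.01 ± 0.14 at 3 months (limma adjusted p = 0.963). The 12-month call was lost under 17 of 27 alternatives, among them quantile normalization, where the value was -0.22 (limma adjusted p = 0.126), and without KO_12M mouse 3, where it was -0.35 (limma adjusted p = 0.0918). It was lost as well without KO_12M mouse 1, Het_12M mouse 2 or 3, or Het_3M mouse 1 or 3 (limma adjusted p from 0.0512 to 0.137).

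Serpinf2, the plasmin inhibitor, differed by 0.32 ± 0.12 at 3 months and -0.18 ± 0.12 at 12 months (limma adjusted p = 0.0756 and 0.409). Vtn, vitronectin, which binds plasminogen activator inhibitor and the terminal complement complex, differed by 0.08 and -0.14 at 3 months and by -0.14 and -0.28 at 12 months on its 2 probe sets. Neither gene passed at either age.

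**Figure D4:**
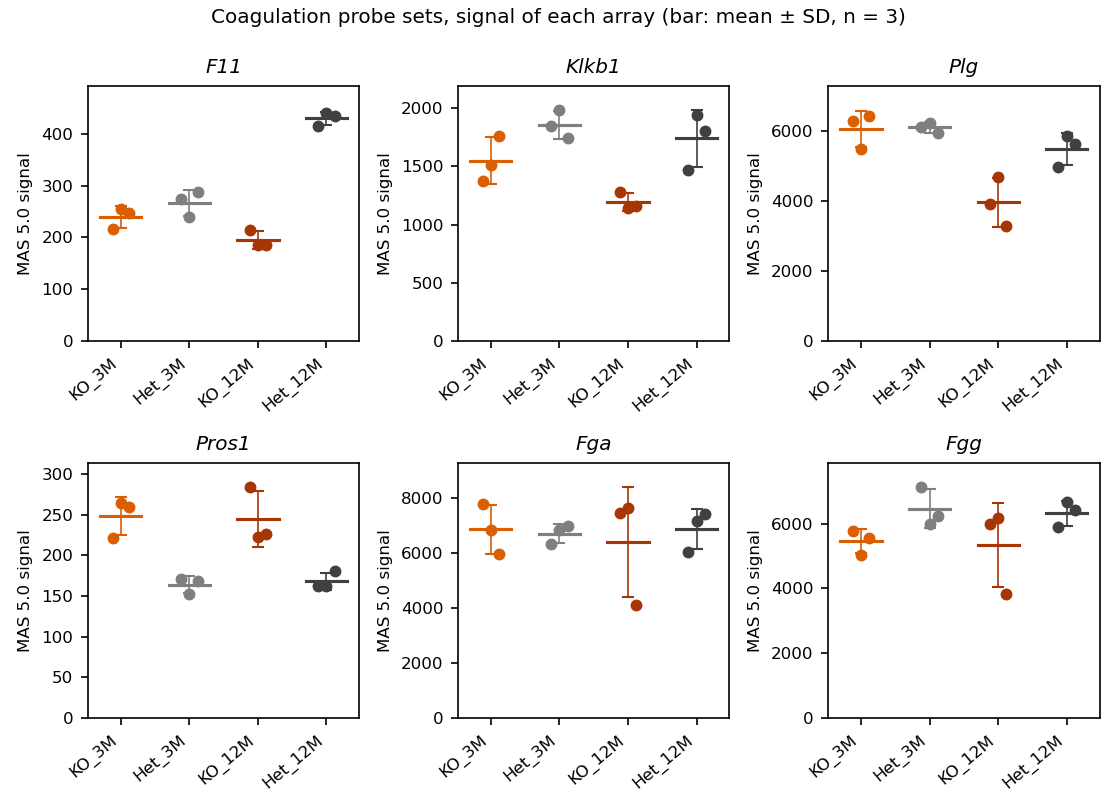
MAS 5.0 signal of each array (vertical axes, from 0) for 6 coagulation probe sets in KO_3M, Het_3M, KO_12M and Het_12M, with a bar at the mean and an SD over 3 mice. F11 lies at 195 in KO_12M against 429.6 in Het_12M, and KO_12M mouse 3 is the low point of Fga and Fgg.

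In the wider coagulation list, 17 of 29 genes were tested by 23 probe sets, of which 4 rose and 3 fell at 3 months, and 2 rose and 1 fell at 12 months. The shares over all tested probe sets were 9.55% higher and 11.6% lower at 3 months, and 5.86% and 3.6% at 12 months. F2r, the thrombin receptor, rose on both of its probe sets at both ages, by 1.12 and 1.01 at 3 months and by 1.31 and 1.58 at 12 months. Serpina10, the inhibitor of factor Xa that acts with protein Z, rose by 0.56 at 3 months. F8, the cofactor made by endothelial cells, was called higher at 3 months, at mean signals of 66.5 in KO_3M against 17.3 in Het_3M. It reached the array median on 3 knockout arrays and no heterozygous array, so it was tested only because of the group where it was high. The protease inhibitor genes Tfpi2 and A2m fell by 0.60 and 0.82 at 3 months, Lman1, whose product carries factors V and VIII out of the endoplasmic reticulum, fell by 0.54, and Mug1 fell by 0.61 at 12 months.

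Markers of other cell types were read beside the members. Of 8 stellate cell and fibroblast probe sets, 5 rose at each age (Lum, Col1a1, Col3a1, Pdgfrb and Dcn). Summed signals were 2615 to 3077 in KO_3M against 1083 to 1217 in Het_3M and 2231 to 2769 in KO_12M against 974 to 1412 in Het_12M. Tested probe sets of Acta2 and Des were not called, at means of 111 and 48.1 in KO_3M against 145 and 65.4 in Het_3M. Lrat, untested, had 11.7 against 32.5. Untested probe sets of Acta2 and Des were higher in KO_3M, at 20.5 and 25.9 against 14.5 and 17.9. The tested Acta2 and Des probe sets and Lrat had higher means in KO_12M than in Het_12M. The 5 neutrophil probe sets did not pass, and their sums were 337 to 380 in KO_3M against 412 to 477 in Het_3M and 377 to 690 in KO_12M against 459 to 472 in Het_12M. The endothelial marker Lyve1 fell at 3 months among 5 probe sets, the single cholangiocyte probe set, of Epcam, was called higher at 3 months but reached the array median on knockout arrays alone, and the single adipocyte probe set, of Fabp4, rose at 12 months. Of 7 T and B cell probe sets, 2 were tested, those of Ms4a1 and Cd8a, and both fell at 3 months. Their means were 40.8 and 57.4 in KO_3M against 75.4 and 151 in Het_3M. Untested probe sets of Cd79a, Cd3e and Cd8a were higher in KO_3M, at means of 50.7, 26.7 and 21.4 against 19.1, 24.7 and 5.53. Those of Cd3g and Ms4a1 were lower, at 25.4 and 5.1 against 27.5 and 14.4. The 3 tested platelet probe sets did not pass. The shares over all tested probe sets were 9.55% higher and 11.6% lower at 3 months, and 5.86% and 3.6% at 12 months.

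The interaction compares the knockout effect at 12 months with that at 3 months. F11 was the member probe set that passed, at -0.93 ± 0.18 (limma adjusted p = 0.0282), in a comparison where 0.717% of all tested probe sets were called, 0.393% as higher and 0.324% as lower. C6 and C2 followed at -0.87 ± 0.22 and -0.77 ± 0.20, and did not pass (limma adjusted p = 0.0767 and 0.0824). C2 passed without Het_3M mouse 1, at -0.93 (limma adjusted p = 0.0457), and median scaling took C2 (-1.04), C6 (-1.15) and Masp1 1419677_at (-0.84) past the threshold (limma adjusted p = 0.0197, 0.0442 and 0.0452). Of the 45 member probe sets 38 were below 0, with a median of -0.23 beside 0.06 for all tested probe sets. Without KO_12M mouse 3, 4 of 20 complement and 9 of 25 coagulation probe sets were above 0, and with quantile normalization 5 and 10. The F11 call was lost under 12 of 26 alternatives, among them leaving out any 1 of the 6 heterozygous arrays or KO_3M mouse 2 or 3 (limma adjusted p from 0.0513 to 0.0861), with values between -1.19 and -0.81 over the 26.

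In knockout livers of 12 months against knockout livers of 3 months, 8 member probe sets were lower and 1 was higher, where 8.95% of all tested probe sets were called, 3.15% as lower and 5.8% as higher. C2 fell by 1.02, with an SE of 0.14 (limma adjusted p = 0.00218), and was past the threshold in each of 27 alternatives, with values between -1.35 and -0.92. Masp1 1419677_at (-0.73), C8b (-0.66), F5 1449269_at (-0.64), Plg (-0.62), Mbl1 (-0.51), Mbl2 (-0.49) and Proc (-0.38) were also called lower, and Masp1 1438603_x_at (0.56) higher. In heterozygous livers none of these was called with age. The values there were -0.32 for Mbl1, -0.30 for Proc, -0.28 for F5 1449269_at and -0.26 for C2. They were -0.16 for Plg and for Masp1 1419677_at, -0.11 for C8b and for Mbl2, and -0.06 for Masp1 1438603_x_at. Mbl1 had 783, 818 and 617 in KO_12M against 1137, 1041 and 979 in KO_3M, and Mbl2 had 3085, 2581 and 2704 in KO_12M against 3959, 3602 and 4217 in KO_3M. Neither pair of groups overlapped. Each of these calls apart from that of C2 was lost under at least 1 alternative, that of Proc under 21 of 27 and that of Masp1 1438603_x_at under 20 of 26.

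The count of these age differences depended on the scaling. Median scaling gave 30 lower calls and quantile normalization 2, the session block gave 13 lower and 0 higher, and without KO_12M mouse 3 there were 5 lower and 1 higher. Without KO_3M mouse 1 there were 4 lower, and without KO_3M mouse 3 there were 5. Of the 45 member probe sets 42 were below 0, with a median of -0.23 beside 0.10 for all tested probe sets. Under median scaling the complement median was -0.62 and the coagulation median -0.56, beside -0.20 for all tested probe sets. With quantile normalization they were -0.11 and -0.07, with 6 of 20 and 11 of 25 probe sets above 0, beside 0.01 for all tested probe sets, and with the session block they were -0.47 and -0.38. Leaving out both 3-month mice with a conflicting age label gave 2 calls.

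In heterozygous livers F11 was the member probe set called with age, where 1.15% of all tested probe sets were called. Its signals were 415, 439.9 and 434 in Het_12M against 274, 239 and 288 in Het_3M, without overlap, and the log2 fold change was 0.66 ± 0.13 (limma adjusted p = 0.0236). Within session 1, the mean of the 3 Het_12M arrays exceeded Het_3M mouse 1 by 0.62. The call was lost under 11 of 27 alternatives, among them leaving out any 1 of the Het_12M mice or Het_3M mouse 1 or 2 (limma adjusted p from 0.0549 to 0.132). F11 signals were higher on each Het_12M array than on any array of the other groups, while its KO_12M level differed from that of KO_3M by -0.27 ± 0.13, which did not pass (limma adjusted p = 0.176).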

How the data were processed

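Liver RNA of 12 mice was measured on Affymetrix MOE430A arrays. Each deposited value is the MAS 5.0 signal of a probe set, a linear intensity. The authors extracted it with MAS 5.0 software, which the design text and the submitters' processing notes name; no source used here states how the arrays were scaled. The trimmed means of the arrays lay between 150.05 and 150.073, so the arrays had been scaled before deposit. Experiment files without measurements gave the scan sessions and fluidics records.

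Each array was brought to 1 trimmed mean, 16 was added and log2 taken. Of 22690 probe sets, 64 controls were left out, 20393 had 1 gene symbol, 691 several and 1606 none. A probe set was tested where at least 3 of 12 arrays reached their own array median, which left 12976. The fit was limma 3.58.1 in R 4.3.3 (lmFit and eBayes with trend, 4 group means, 8 residual degrees of freedom). In simulated data for KO_3M against Het_3M over 12976 probe sets it called 29% of 1.5-fold, 81% of 2-fold and 96% of 3-fold changes. There 200 probe sets were changed at each fold, in independent normal noise. In the real comparison 21.2% of probe sets were called, so the simulated rates need not hold for it. Tables and figures used Python 3.11.15, pandas 2.3.3, numpy 2.4.6 and matplotlib 3.10.9.

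The members and lists were chosen with earlier results of these data known. Member probe sets were named with array values where called in a knockout comparison or the interaction, or where another probe set of that gene was, and the values of a few others (Abcb4, C9, Fga, Serpind1, Mbl1 and Mbl2) were added after they had been seen. Lists of wider complement, wider coagulation, acute phase and other secreted genes and of 9 cell types were counted. The labels name no pairing of mice by number. Same-numbered arrays of different groups had a median correlation of deviations of -0.03, with 1 of 18 over 0.1. Arrays of different numbers had -0.01, with 8 of 36 over 0.1. With 3 mice in each group these correlations cannot exclude a pairing. Alternatives changed the offset, scaling, filter, probe choice, variance trend, samples, session block, replicate block and actin ratio covariate, or left out arrays. Precision is limited by the number of arrays.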

Additional observations from a re-analysis of the deposited data

Results flagged for a closer look

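F11, the gene of coagulation factor XI, was picked out because its knockout effect differed between the ages by a test of that difference. The effect at 12 months minus the effect at 3 months was -0.93 on the log2 scale, with an SE of 0.18 (limma adjusted p = 0.0282). This call was lost under 12 of 26 alternatives, among them leaving out each heterozygous array in turn. From 3 to 12 months F11 rose by 0.66 in heterozygous livers, while its change of -0.27 in knockout livers did not pass (limma adjusted p = 0.176). F11 was lower in 3 of 3 KO_12M livers, at 215, 186 and 185, than in any Het_12M liver, at 415, 439.9 and 434, whereas KO_3M, at 216, 255 and 248, overlapped Het_3M, at 274, 239 and 288. No session held both genotypes at 1 age, so session and genotype cannot be told apart within an age.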

How the results depend on the processing

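Among the called member probe sets, C2 and C6 in KO_3M against Het_3M and C2 in KO_12M against KO_3M passed under every alternative run, and no called value changed sign. The main counts were 6 complement and 2 coagulation calls at 3 months, 4 and 5 at 12 months, 1 in the interaction, 9 for age in knockout livers and 1 for age in heterozygous livers, and the counts below keep these names. Leaving out each mouse in turn gave 5 to 8 complement and 2 to 4 coagulation calls at 3 months, 1 to 4 and 1 to 5 at 12 months, 0 to 1 in the interaction, 4 to 8 for age in knockout livers and 0 to 1 for age in heterozygous livers. With scan session as a block there were 3 complement and 1 coagulation calls at 3 months, 0 and 0 at 12 months, 0 in the interaction, 13 for age in knockout livers and 0 for age in heterozygous livers. With the actin ratio as a covariate there was 1 coagulation call at 3 months, 1 complement and 1 coagulation call at 12 months, 1 for age in knockout livers and 0 in heterozygous livers. Without both arrays with a fluidics error (Het_12M mouse 1 and Het_3M mouse 2), an alternative chosen after seeing the data, there was 1 coagulation call at 3 months, 2 complement and 2 coagulation calls at 12 months, 0 in the interaction and 0 for age in heterozygous livers. Without both arrays of another fluidics script (KO_12M mouse 3 and KO_3M mouse 1), also added then, there were 3 coagulation calls at 12 months and 2 for age in knockout livers. Median scaling gave 3 coagulation calls at 12 months, 4 in the interaction, 30 for age in knockout livers and 0 in heterozygous livers. Without the variance trend there were 3 coagulation calls at 12 months, 0 in the interaction and 0 for age in heterozygous livers. Fitting the compared groups alone gave 3 coagulation calls at 12 months and 2 for age in knockout livers, quantile normalization gave 2 for age in knockout livers, and leaving out both arrays with conflicting age labels gave 2 in knockout and 0 in heterozygous livers. The cause of these moves was not tested. Fewer arrays or groups in a fit leave fewer residual degrees of freedom by construction.

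The labels name no pairing of mice by number, and a pairing was not excluded. With the replicate block there were 6 complement and 2 coagulation calls at 3 months, 3 and 3 at 12 months, 0 in the interaction and 7 for age in knockout livers, and the F11 interaction had limma adjusted p = 0.055. Dim probe sets are the least certain: Cfp lay below the array median on 6 of 12 arrays, so its fold change depends on the offset.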
